A study of Sus scrofa with 36 samples.

Results

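Gene expression in the hearts of piglets at postnatal day 7 (P7) was compared with that at day 28 (P28), the interval between the end of the first week and the fourth week of life. Total RNA libraries from 3 hearts at each age were compared, each from a different animal. A gene entered the comparison when at least 3 of these 6 libraries held 10 or more reads of it, which 5301 of the 9815 genes in the table did. Of these, 4465 were protein-coding genes and 523 long noncoding RNA (lncRNA) genes, and the rest were mostly pseudogenes and small RNA genes. The table holds genes of chromosomes 1, 2, 6 and 13, and other genes were not analysed here.

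The study collected hearts of domestic Yorkshire pigs of both sexes at P1, P3, P7 and P28, from animals that were fed normally and for which no treatment or genetic change is named. The libraries used here are those of the cd batch, sequenced by CD Genomics, with 3 libraries at each of the 4 ages. Per the study's text the samples came from the entire heart, with myocytes and other cells together, and the sex of each animal is not given in the sources used here. In such bulk tissue, fewer cells of a type and less RNA per cell cannot be told apart.

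The heart of a newborn mammal keeps some capacity to form new cardiomyocytes, and most cardiomyocytes stop dividing in the first weeks of life. Over the same weeks the muscle moves from fetal to adult isoforms of contractile proteins, relies more on fatty acids as fuel, and remodels the fibrillar network in which the cells are held. These accounts are background to the gene groups described here, and the comparison of P7 with P28 asks which transcripts differ once the first week has passed.

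The 6 libraries held between 10112239 and 13169144 reads counted over these genes. Levels are given in CPM, the reads of a gene per 1000000 reads counted over the genes of these 4 chromosomes, scaled by edgeR's TMM factors. Each P7 library was closest to another P7 library and each P28 library to another P28 library. The signal recognition particle RNA genes took from 7.09% to 19.7% of the reads of a library, with the lowest and the highest share both at P7. Among the 12 libraries of the fit, P3 replicate 5 lay farthest from its own age (root mean square difference 0.73 on the log2 scale). Cardiac muscle markers were abundant in all 6 libraries, with summed CPM of 58075 to 65391 at P7 and 69392 to 79440 at P28 over 6 markers.

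At P28, 444 genes were higher and 592 genes were lower than at P7, at an adjusted p below 0.05 in edgeR's quasi-likelihood test with Benjamini-Hochberg adjustment over the 5301 genes. The 1036 called genes were 19.5% of all tested genes, with 8.38% called higher and 11.2% called lower, and these shares are the background for the counts that follow. The median log2 fold change (P28 minus P7) of the genes called higher was 0.81, and that of the genes called lower was -1.18. Over all tested genes the median was 0.01. A log2 fold change over 2 was found in 35 of the genes called higher, and one under -2 in 119 of those called lower. In 1032 of the 1036 called genes the 3 P28 libraries lay wholly above or wholly below the 3 P7 libraries. Such separation was also seen in 48.0% of all tested genes.

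**Figure D1:**
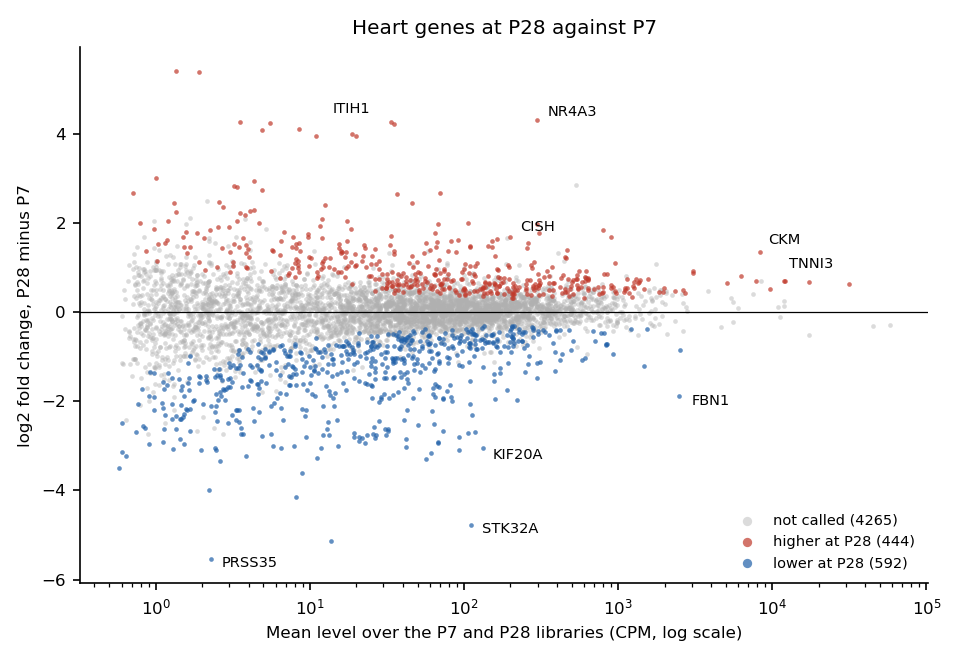
Log2 fold change of each of the 5301 genes (P28 minus P7, vertical axis) against its mean level over the P7 and P28 libraries in CPM (horizontal axis, log scale). Red points are the 444 genes called higher at P28, blue points the 592 called lower and grey points those not called; KIF20A and FBN1 lie among the blue points, and NR4A3 and CKM among the red.

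The number of called genes depended on which libraries set the spread. Without P3 replicate 5, a library of neither age that lends its spread to the fit, 1562 genes were called (755 higher and 807 lower), and the 1036 genes were all among them. The 6 libraries alone gave 1681 calls. With any 1 of the 6 libraries left out, between 583 (without P7 replicate 5) and 724 (without P28 replicate 4) genes were called, and all 1036 genes kept their direction. Scaling by library totals alone moved the median of all genes to -0.11 and gave 267 genes higher and 702 lower, so that 27.6% of calls were higher instead of 42.9%.

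Calls in either direction were counted by level. Among the 1325 genes with the highest mean level 176 were higher and 98 lower, and among the 1326 with the lowest mean level 63 were higher and 163 lower. The P28 mean was the highest of the 4 ages for 411 of the 444 genes called higher. Of the 592 genes called lower, 543 had their lowest mean at P28 and 390 their highest mean at P7. Calling genes by the difference between P28 and P7 itself favours such means. These counts are therefore no separate evidence of a course over the 4 ages. The filter let 39 genes that were called lower pass through the P7 libraries alone and 15 that were called higher through the P28 libraries alone, and these had to differ.

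The higher protein-coding genes with the smallest p were CISH, NR4A3, ITIH1, ITIH3, HRH1, MITF, ITIH4 and FTL. CISH, a feedback inhibitor of cytokine receptor signalling that is induced through STAT factors (chromosome 13, positions 33084873 to 33090615 on Sscrofa11.1), measured 74.7, 108 and 101 CPM at P7 and 366, 240.4 and 298 CPM at P28. The lowest P28 library lay above the highest P7 library, and the difference passed the test (log2 fold change 1.68 ± 0.17 SE, edgeR adjusted p = 0.000198). NR4A3, an orphan nuclear receptor of the immediate early class (chromosome 1, positions 241569905 to 241611734), measured 22.6, 21.5 and 42.1 CPM at P7 and 340.2, 859 and 513 CPM at P28. Its P28 libraries differed among themselves more than the P7 libraries did, but the groups did not overlap (log2 fold change 4.31 ± 0.51 SE, edgeR adjusted p = 0.000377).

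ITIH1, ITIH3 and ITIH4 belong to the heavy chain family of the inter-alpha-trypsin inhibitors, secreted proteins of which some are linked to hyaluronan in the extracellular matrix. ITIH1 measured 5.50, 2.33 and 2.28 CPM at P7 and 70.7, 48.4 and 73.5 CPM at P28 (log2 fold change 4.27 ± 0.51 SE, edgeR adjusted p = 0.000384), and ITIH4 measured 15.6, 15.7 and 11.5 CPM at P7 and 81.5, 63.3 and 89.3 CPM at P28 (log2 fold change 2.45 ± 0.31 SE, edgeR adjusted p = 0.000523). The 3 genes lie side by side on chromosome 13 and overlap in the annotation, with ITIH1 at positions 34892339 to 34924812 and ITIH3 at positions 34892369 to 34937568. Reads of ITIH1 and ITIH3 can be the same reads, since their levels were nearly equal in every library, and how the counting treated overlaps is not given in the sources used here. ITIH4 lay above ITIH1 by a similar number of CPM in the libraries of both ages, so its rise can come from the same reads as well. ITIH3 (log2 fold change 4.22 ± 0.51) and ITIH4 are therefore not separate observations from ITIH1. At P1 the mean level of ITIH1 was 14.4 CPM, between those at P7 and P28.

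The remaining genes of this set changed less. MITF, a basic helix-loop-helix leucine zipper transcription factor, measured 267, 257 and 288 CPM at P7 and 733, 624 and 546 CPM at P28 (log2 fold change 1.23 ± 0.16 SE, edgeR adjusted p = 0.000523). FTL, the light chain of the iron store ferritin, measured 603, 549 and 649 CPM at P7 and 992, 1106 and 1171 CPM at P28 (log2 fold change 0.86 ± 0.12 SE, edgeR adjusted p = 0.000703). HRH1, the histamine H1 receptor, measured 70.0, 65.0 and 60.4 CPM at P7 and 141, 125 and 149.6 CPM at P28 (log2 fold change 1.09 ± 0.14 SE, edgeR adjusted p = 0.000523). In each of the 3 genes all P28 libraries lay above all P7 libraries. FTL overlaps DHDH and HRH1 overlaps an unnamed gene in the annotation.

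**Figure D2:**
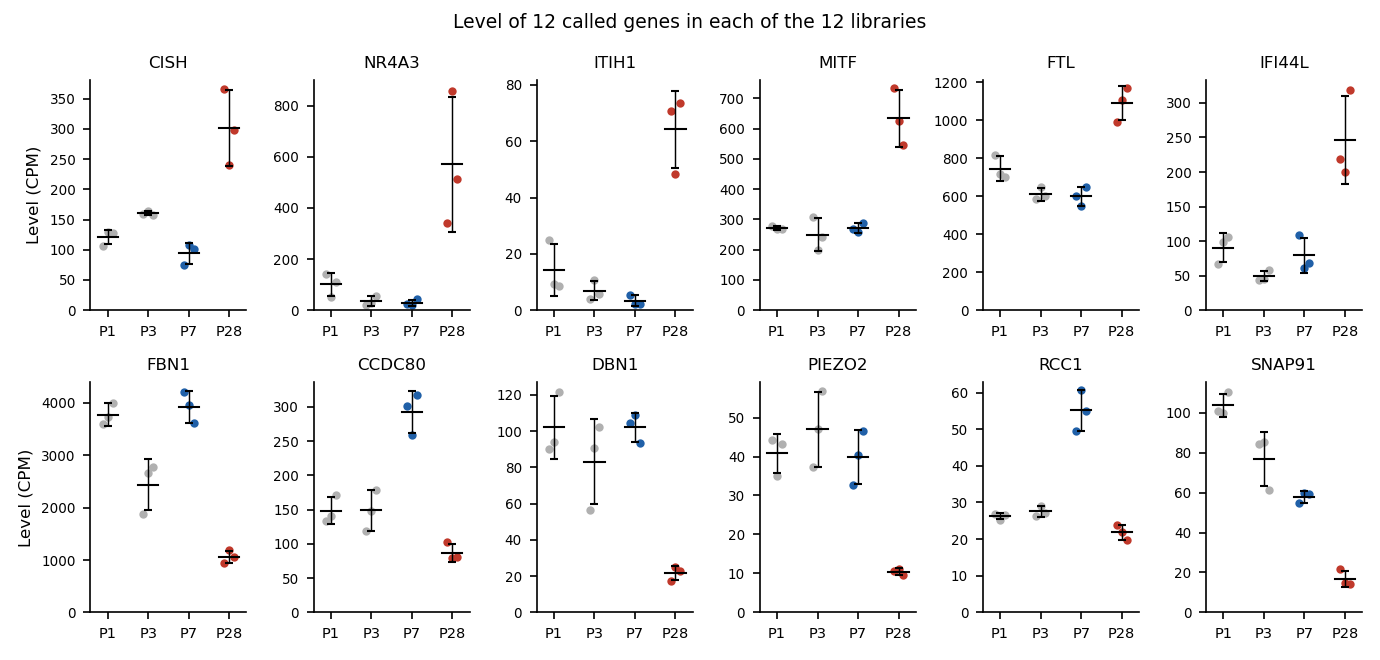
Level of 12 called genes in CPM in each of the 12 cd libraries at P1, P3, P7 (blue) and P28 (red), each panel with its own axis from 0. Points are libraries, horizontal bars means and error bars SD (n = 3); in the upper 6 genes all P28 libraries lie above all P7 libraries, and in the lower 6 genes below them.

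The lower protein-coding genes with the smallest p were FBN1, GXYLT2, ADAMTS17, CCDC80, DBN1, PIEZO2, RCC1 and SNAP91. FBN1, which encodes fibrillin-1, the main component of extracellular microfibrils (chromosome 1, positions 123102009 to 123359649), measured 4212, 3959 and 3609 CPM at P7 and 948, 1187 and 1051 CPM at P28. Every P28 library was below every P7 library by a wide margin, and FBN1 had the smallest p of the table (log2 fold change -1.89 ± 0.16 SE, edgeR adjusted p = 0.000181). CCDC80, a secreted protein associated with the matrix, measured 302, 258 and 318 CPM at P7 and 103, 78.8 and 80.3 CPM at P28 (log2 fold change -1.75 ± 0.17 SE, edgeR adjusted p = 0.000195). ADAMTS17, a secreted metalloprotease related to those that act on microfibrils, measured 24.8, 19.4 and 18.7 CPM at P7 and 1.75, 3.11 and 2.74 CPM at P28 (log2 fold change -3.05 ± 0.30 SE, edgeR adjusted p = 0.000195); it overlaps 3 unnamed genes. GXYLT2, a xylosyltransferase that extends O-glucose on epidermal growth factor repeats such as those of Notch, measured 114, 93.5 and 97.3 CPM at P7 and 23.4, 31.0 and 26.8 CPM at P28 (log2 fold change -1.91 ± 0.17 SE, edgeR adjusted p = 0.000195).

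The other 4 genes act within cells or at the membrane. DBN1 encodes drebrin, which binds actin filaments, and measured 104, 109 and 93.3 CPM at P7 and 17.5, 25.2 and 23.0 CPM at P28 (log2 fold change -2.22 ± 0.22 SE, edgeR adjusted p = 0.000195). PIEZO2 is a mechanically gated cation channel and measured 32.8, 40.3 and 46.7 CPM at P7 and 10.6, 11.2 and 9.57 CPM at P28 (log2 fold change -1.93 ± 0.19 SE, edgeR adjusted p = 0.000195). For both genes the highest P28 library was far below the lowest P7 library, and P1 and P3 means were near those of P7, at 102 CPM for DBN1 and 40.8 CPM for PIEZO2 at P1. RCC1, the nucleotide exchange factor of the GTPase Ran, measured 49.6, 60.8 and 55.0 CPM at P7 and 23.8, 22.0 and 19.7 CPM at P28 (log2 fold change -1.33 ± 0.13 SE, edgeR adjusted p = 0.000195). Unlike DBN1 and PIEZO2 its mean at P1, 26.2 CPM, was near that at P28. SNAP91, a clathrin assembly protein known from synapses, measured 54.6, 59.6 and 59.3 CPM at P7 and 21.5, 14.6 and 14.2 CPM at P28 (log2 fold change -1.78 ± 0.18 SE, edgeR adjusted p = 0.000198), after a mean of 104 CPM at P1.

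Genes of mitosis were lower at P28 almost without exception. Of 30 tested gene entries of the mitosis list (CDC25C has 2), 29 were lower and none was higher, and the median log2 fold change was -2.69. All 30 entries had every P28 library below every P7 library. The summed level of the list was 3168, 3862 and 3295 CPM in the P7 libraries and 977, 1314 and 912 CPM in the P28 libraries. With any 1 of the 6 libraries left out, 29 of the 30 were called lower.

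The mitosis genes with the smallest p cover several steps of chromosome segregation. SGO1, the shugoshin that protects centromeric cohesion, measured 28.1, 39.5 and 33.0 CPM at P7 and 3.51, 7.20 and 4.59 CPM at P28 (log2 fold change -2.72 ± 0.33 SE, edgeR adjusted p = 0.000387). KIF15, a kinesin of the bipolar spindle, measured 71.1, 85.5 and 68.7 CPM at P7 and 8.53, 12.2 and 6.74 CPM at P28 (log2 fold change -3.03 ± 0.40 SE, edgeR adjusted p = 0.000593). MIS18A, which prepares centromeres for new histone CENP-A, measured 34.1, 40.2 and 39.8 CPM at P7 and 4.78, 7.85 and 3.32 CPM at P28 (log2 fold change -2.83 ± 0.38 SE, edgeR adjusted p = 0.000703). MELK, a kinase that peaks in dividing cells, measured 42.7, 48.0 and 43.5 CPM at P7 and 5.98, 9.16 and 5.08 CPM at P28 (log2 fold change -2.72 ± 0.35 SE, edgeR adjusted p = 0.000523). In all 4 genes P28 replicate 5 was the highest of the P28 libraries and still lay far below P7. The kinesins KIF23 and KIF20A, which act in cytokinesis, had the largest differences of the list, with log2 fold changes of -3.08 ± 0.51 and -3.06 ± 0.51. KIF15 overlaps KIAA1143 in the annotation.

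Genes of DNA replication and repair fell as well, with a smaller median. Of 30 tested, 27 were lower and none was higher (median log2 fold change -1.56), and between 23 and 27 were lower when 1 of the 6 libraries was left out. The licensing and origin genes CDT1 and ORC1 had the largest differences, with log2 fold changes of -3.00 ± 0.51 and -2.94 ± 0.41. CHAF1A and CHAF1B, subunits of the chromatin assembly factor that loads histones behind the fork, were both lower. CHAF1A measured 49.6, 59.4 and 48.9 CPM at P7 and 7.25, 12.5 and 5.76 CPM at P28 (log2 fold change -2.62 ± 0.30 SE, edgeR adjusted p = 0.000297), and CHAF1B measured 17.7, 23.0 and 18.9 CPM at P7 and 4.22, 5.40 and 4.10 CPM at P28 (log2 fold change -2.12 ± 0.23 SE, edgeR adjusted p = 0.000268). No P28 library reached the level of any P7 library in either gene. RAD54L, a motor of homologous recombination that overlaps LRRC41, and POLA2, a subunit of the primase-polymerase, had log2 fold changes of -2.43 ± 0.31 and -1.45 ± 0.20 (edgeR adjusted p = 0.000523 and 0.000703). USP1, NASP and TIPIN did not pass the test, with log2 fold changes of -0.41, -0.39 and -0.38.

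**Figure D3:**
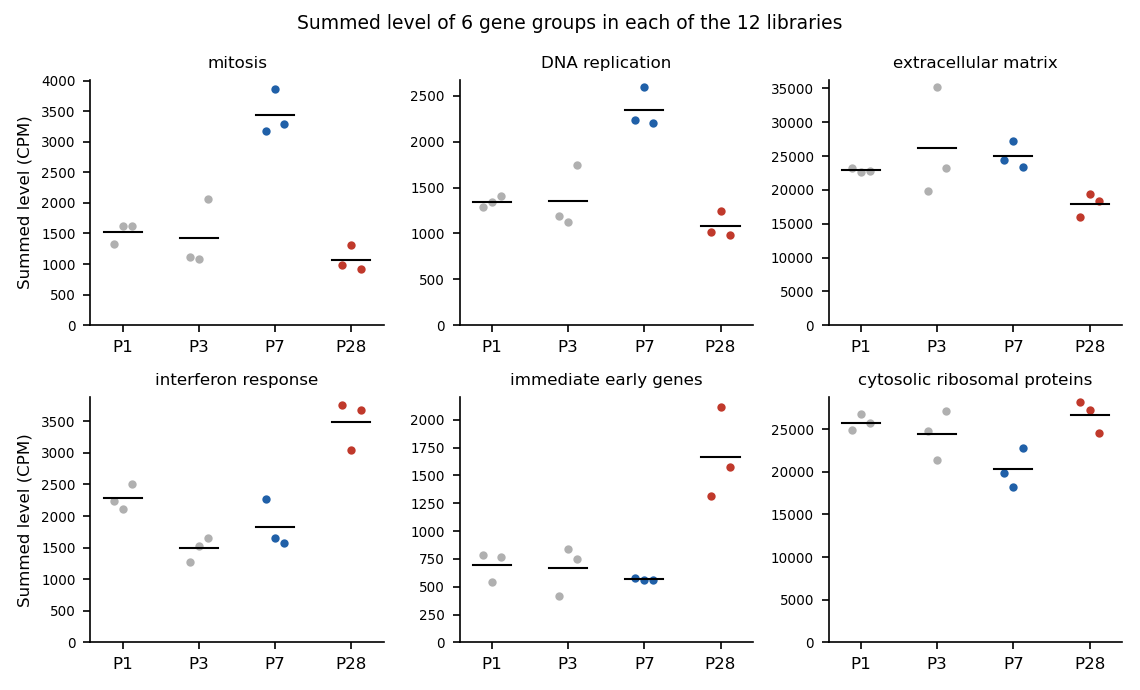
Summed level in CPM of 6 gene groups in each of the 12 cd libraries, over all their genes in the table, tested or not. P7 is in blue, P28 in red, P1 and P3 in grey, with a bar at the mean of each age (n = 3). Mitosis and DNA replication genes stand highest in the 3 P7 libraries, and the interferon response and immediate early groups stand highest in the 3 P28 libraries.

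The level of the cell cycle genes at P7 was itself above that at P1. All 30 mitosis entries and all 30 replication genes had their highest mean of the 4 ages at P7. Between P1 and P7 the median log2 fold change was 1.43 for mitosis, with 10 genes higher at P7, and 0.95 for replication, with 8 higher, against 1.57% of all tested genes called higher at P7. That comparison uses the same P7 libraries as the comparison with P28. The summed mitosis level at P1 was between 1333 and 1621 CPM, so all 3 P1 libraries lay above the highest P28 library.

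Of 47 tested extracellular matrix genes, 21 were lower at P28, 1 was higher and 25 did not pass the test, with a median log2 fold change of -0.64, against 11.2% and 8.38% of all genes. The summed level of the 49 matrix genes in the table was 23400 to 27292 CPM at P7 and 16000 to 19358 CPM at P28, without overlap. With 1 of the 6 libraries left out, 16 to 20 genes were lower. Apart from FBN1 and ADAMTS17, the smallest p values were those of ADAMTS2 and LAMA1. ADAMTS2, which trims procollagens, measured 260.5, 227 and 236 CPM at P7 and 95.2, 107 and 101 CPM at P28 (log2 fold change -1.25 ± 0.15 SE, edgeR adjusted p = 0.000377). LAMA1, a laminin chain of basement membranes, measured 15.4, 17.5 and 16.3 CPM at P7 and 1.75, 1.47 and 3.91 CPM at P28 (log2 fold change -2.80 ± 0.38 SE, edgeR adjusted p = 0.000703). All P28 libraries were below all P7 libraries in both genes.

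Matrix genes of several kinds were among those called lower. They included the short-chain collagens COL8A1 and COL8A2 (log2 fold changes -1.96 ± 0.28 and -2.56 ± 0.67), the matricellular genes TNC (-1.99 ± 0.55) and THBS4 (-1.32 ± 0.21), the proteoglycan VCAN (-0.66 ± 0.17) and the protease MMP2 (-1.15 ± 0.21). The collagen-hydroxylating enzymes PLOD1 and PLOD2 were lower too, with log2 fold changes of -0.64 ± 0.13 and -0.70 ± 0.15. ADAMTS1, a protease that cleaves versican, was the 1 matrix gene called higher, and measured 188, 159 and 203 CPM at P7 and 292, 413 and 391 CPM at P28 (log2 fold change 1.00 ± 0.22 SE, edgeR adjusted p = 0.00901). Genes for the fibrillar collagens I and III were not among the genes tested here. With 1 library left out the adjusted p was 0.0343 to 0.0876 (above 0.05 without P7 replicates 4 or 6 or P28 replicates 5 or 6) for TNC, 0.0326 to 0.0739 (above 0.05 without P7 replicate 6 or P28 replicate 4) for VCAN and 0.025 to 0.0575 (above 0.05 without P7 replicate 6) for COL8A2. COL8A2 had 10 reads or more only in P7 libraries among the 6, so it too passed the filter through P7 alone.

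**Figure D4:**
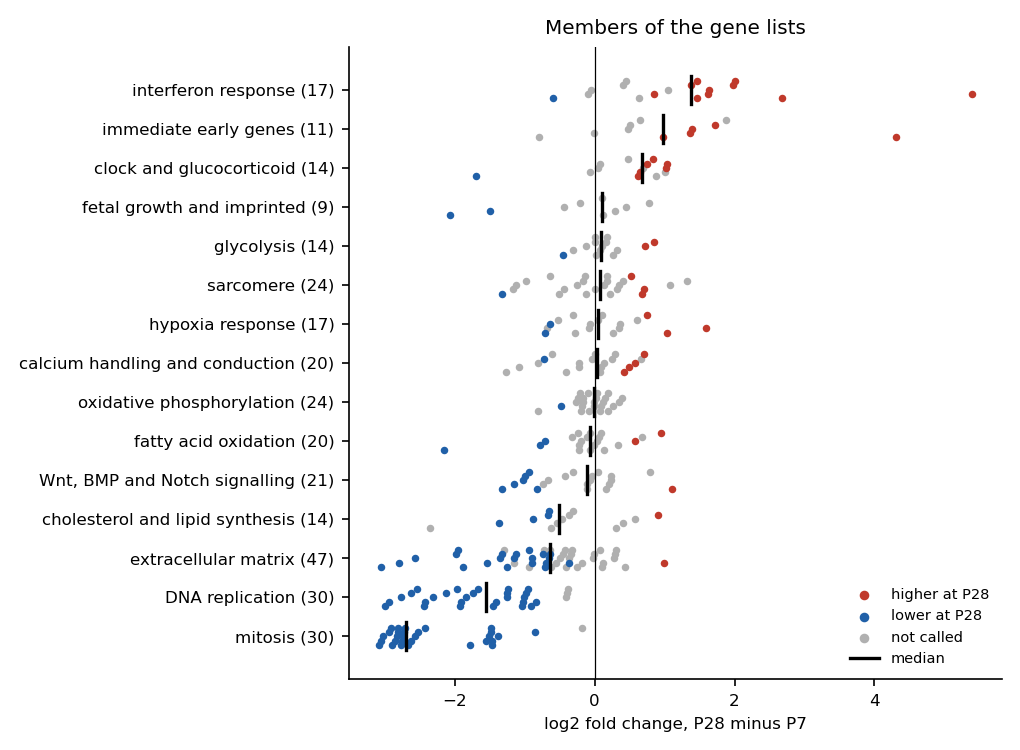
Log2 fold change (P28 minus P7) of each tested member of 15 gene lists, with the number of tested members in brackets. Red points were called higher, blue points lower and grey points not called, and black bars are medians; the mitosis and DNA replication lists lie left of 0 throughout, and the median of the interferon response list is 1.38.

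Of 24 tested sarcomere genes, which encode the contractile filaments, 3 were higher and 1 was lower, against 19.5% of all tested genes called in either direction. Their median log2 fold change was 0.07. Scaled by library totals, 2 were higher and 3 lower with a median of -0.06, and TNNC1 was no longer called. The 3 that rose, TNNC1, MYBPC3 and TNNI3, were also among the called protein-coding genes with the highest level per length. TNNI3, the cardiac isoform of troponin I that replaces the fetal skeletal isoform after birth, measured 9999, 8686 and 8783 CPM at P7 and 15768, 14077 and 14752 CPM at P28 (log2 fold change 0.70 ± 0.14 SE, edgeR adjusted p = 0.0051). MYBPC3, cardiac myosin binding protein C, measured 13990.4, 13572 and 12286 CPM at P7 and 21689, 20673 and 21641 CPM at P28 (log2 fold change 0.68 ± 0.14 SE, edgeR adjusted p = 0.00608), and TNNC1, troponin C of heart and slow muscle, measured 8655, 7706 and 7543 CPM at P7 and 13605, 10858 and 9937 CPM at P28 (log2 fold change 0.53 ± 0.16 SE, edgeR adjusted p = 0.035). The groups did not overlap in any of the 3 genes, and the margin was smallest for TNNC1. DNAAF3, a dynein assembly factor, had counts nearly equal to those of TNNI3, which lies over it in the annotation, and its log2 fold change of 0.69 ± 0.14 cannot be separated from that of TNNI3. For TNNC1, leaving out 1 of the 6 libraries gave adjusted p of 0.0353 to 0.128 (below 0.05 only without P28 replicate 6).

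TPM4, a cytoskeletal tropomyosin, was the sarcomere gene called lower. It measured 569, 531 and 568 CPM at P7 and 213, 232 and 221 CPM at P28 (log2 fold change -1.33 ± 0.31 SE, edgeR adjusted p = 0.0115), and its P28 levels were all less than its lowest P7 level. ACTC1, cardiac alpha actin, measured 18835, 23299 and 18927 CPM at P7 and 13939, 17984 and 10914 CPM at P28 and did not pass the test (log2 fold change -0.51 ± 0.17 SE, edgeR adjusted p = 0.057), although it was called lower by DESeq2 and limma voom, under library totals and without P28 replicate 5. Neither did NPPB, the natriuretic peptide B gene that marks wall stress, which measured 96.2, 156 and 134 CPM at P7 and 876, 1317 and 598 CPM at P28 (log2 fold change 2.85 ± 1.06 SE, edgeR adjusted p = 0.0776). The NPPB groups did not overlap, DESeq2 and the fit of the 6 libraries alone called it higher, and its mean at P1 was 1108 CPM. CKM, muscle creatine kinase, was singled out after its values were seen: it measured 5594, 4969.6 and 3519 CPM at P7 and 10904, 12132 and 12869 CPM at P28 (log2 fold change 1.35 ± 0.33 SE, edgeR adjusted p = 0.0146), and its adjusted p was 0.0279 to 0.0595 (above 0.05 without P7 replicate 6) over the fits with 1 library left out.

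Of 20 tested calcium handling and conduction genes, 4 were higher and 1 was lower (median log2 fold change 0.04). The shares over all tested genes were 8.38% higher and 11.2% lower, or 19.5% in either direction. Under library totals 1 was higher and 1 lower (median -0.08), and GJA1, HRC and TRDN were no longer called. HRC and TRDN also lost their calls with a replicate block, a fit with the replicate number as a term. GJA1, the connexin 43 gene of the intercalated disc, measured 2001, 2116 and 2437 CPM at P7 and 3399, 3239.5 and 2599 CPM at P28 (log2 fold change 0.49 ± 0.14 SE, edgeR adjusted p = 0.0312). KCNJ11, a pore subunit of the ATP-sensitive potassium channel, measured 35.8, 32.6 and 32.5 CPM at P7 and 58.7, 52.5 and 54.2 CPM at P28 (log2 fold change 0.71 ± 0.13 SE, edgeR adjusted p = 0.00341). HRC, a calcium-binding protein of the sarcoplasmic reticulum, and TRDN, triadin of the release complex, had log2 fold changes of 0.42 ± 0.13 and 0.58 ± 0.19. BVES, a cAMP-binding membrane protein, was lower and measured 977, 1042 and 1136 CPM at P7 and 695, 645 and 574 CPM at P28 (log2 fold change -0.72 ± 0.17 SE, edgeR adjusted p = 0.0132). Without 1 of the libraries, 1 or 2 genes of this list were called higher, and the adjusted p was 0.0229 to 0.117 (above 0.05 without P7 replicates 4 or 5 or P28 replicates 4 or 5) for GJA1, 0.0507 to 0.118 (above 0.05 in all 6 fits) for HRC, 0.0507 to 0.164 (above 0.05 in all 6 fits) for TRDN and 0.0252 to 0.055 (above 0.05 without P28 replicate 6) for BVES.

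Genes of energy metabolism were called in both directions. Among 20 tested fatty acid oxidation genes, 2 were higher and 3 were lower (median log2 fold change -0.06; 0 to 1 higher and 2 to 3 lower with 1 library left out), and among 24 oxidative phosphorylation genes 1 was lower and none was higher (median -0.01), where 19.5% of all tested genes were called in either direction. The carnitine shuttle genes SLC25A20 and CPT2 were lower, and SLC25A20, the carnitine-acylcarnitine carrier, measured 254, 221 and 261 CPM at P7 and 141, 121 and 166 CPM at P28 (log2 fold change -0.78 ± 0.13 SE, edgeR adjusted p = 0.00206). CPT2, the inner carnitine palmitoyltransferase, had a log2 fold change of -0.71 ± 0.17 and ACOT7, an acyl-CoA thioesterase, one of -2.15 ± 0.49. The regulators ESRRA and PPARGC1B, which switch on mitochondrial genes, were higher, with log2 fold changes of 0.57 ± 0.16 and 0.96 ± 0.30, and PPARGC1B was not called under library totals. ESRRA overlaps TRMT112 and PRDX5. COX8A, a subunit of cytochrome oxidase, measured 241, 252 and 231 CPM at P7 and 168, 195 and 155 CPM at P28 (log2 fold change -0.48 ± 0.15 SE, edgeR adjusted p = 0.0408), and COX7A2, another subunit, had a log2 fold change of -0.81 ± 0.27 (edgeR adjusted p = 0.0505). COX7A2 was called lower by DESeq2 and limma voom, under library totals, without a filter, with 10 counts in each of the 6 libraries and with the 6 libraries alone, and in none of the fits without 1 of the 6 libraries. With 1 library left out, the adjusted p was 0.0207 to 0.0545 (above 0.05 without P28 replicate 5) for CPT2, 0.0375 to 0.107 (below 0.05 only without P7 replicate 4) for ESRRA, 0.0267 to 0.146 (below 0.05 only without P28 replicate 4) for PPARGC1B and 0.0469 to 0.146 (below 0.05 only without P28 replicate 5) for COX8A. COX8A was also not called without a filter or with the replicate block, under which no oxidative phosphorylation gene was called.

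Glycolysis and hypoxia genes were called in both directions, against 19.5% of all tested genes called in either direction. The glycolysis count was near that share. Of 14 tested glycolysis genes 2 were higher and 1 was lower (median log2 fold change 0.09, and -0.03 under library totals). PDP2, the phosphatase that activates pyruvate dehydrogenase, measured 22.3, 23.2 and 22.2 CPM at P7 and 45.4, 34.3 and 42.3 CPM at P28 (log2 fold change 0.85 ± 0.18 SE, edgeR adjusted p = 0.00735), while PYGL, a glycogen phosphorylase that overlaps NIN, measured 299, 303 and 262 CPM at P7 and 189.9, 233 and 211 CPM at P28 (log2 fold change -0.45 ± 0.14 SE, edgeR adjusted p = 0.0384). The gene named LDHB on chromosome 2 (log2 fold change 0.72 ± 0.17) has a copy of the same name on chromosome 5 in RefSeq, so its reads may belong to either. Of 17 hypoxia response genes 3 were higher and 2 were lower (median 0.05, and -0.06 under library totals), and 1 or 2 were higher with 1 library left out. The 3 were HIF3A, a hypoxia-inducible factor subunit, BHLHE40 and RORA, with log2 fold changes of 1.59 ± 0.46, 1.03 ± 0.29 and 0.75 ± 0.17, and the last 2 also belong to the clock list. The 2 lower genes, PLOD1 and PLOD2, are also matrix genes. Across the fits that each left out 1 library, the adjusted p was 0.0506 to 0.138 (above 0.05 in all 6 fits) for PYGL, 0.0135 to 0.0514 (above 0.05 without P7 replicate 5) for LDHB, 0.0531 to 0.0947 (above 0.05 in all 6 fits) for HIF3A and 0.0378 to 0.0945 (above 0.05 without P7 replicates 4 or 6 or P28 replicate 4) for BHLHE40. PYGL was also not called without a filter or with the replicate block.

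Interferon response genes, which cells switch on against viruses, were higher at P28 in part. Of 17 tested, 10 were higher, 1 was lower and 6 did not pass the test, with a median log2 fold change of 1.38, and 9 to 11 were higher when 1 library was left out. The summed level was 2264, 1645 and 1568 CPM at P7 and 3756, 3038 and 3681 CPM at P28. IFI44L measured 109, 61.0 and 67.8 CPM at P7 and 218, 201 and 319 CPM at P28 (log2 fold change 1.64 ± 0.25 SE, edgeR adjusted p = 0.0014), and PARP9, an ADP-ribosyltransferase that works with DTX3L, measured 46.1, 31.8 and 27.2 CPM at P7 and 111, 73.5 and 106 CPM at P28 (log2 fold change 1.47 ± 0.22 SE, edgeR adjusted p = 0.00116). B2M, the invariant chain of MHC class I, measured 661, 507 and 561 CPM at P7 and 1129, 989 and 1001 CPM at P28 (log2 fold change 0.85 ± 0.14 SE, edgeR adjusted p = 0.00188). In these 3 genes P7 replicate 4 was the highest P7 library and still lay below every P28 library. B2M overlaps SPG11 and PARP9 overlaps KPNA1.

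Other members of the interferon list covered a wide range. ISG15, a ubiquitin-like modifier, measured 37.1, 10.4 and 9.68 CPM at P7 and 121, 94.3 and 149 CPM at P28 (log2 fold change 2.68 ± 0.51 SE, edgeR adjusted p = 0.00373), and the antiviral GTPase MX1 measured 78.5, 33.7 and 15.0 CPM at P7 and 182, 129 and 199 CPM at P28 (log2 fold change 2.01 ± 0.51 SE, edgeR adjusted p = 0.0167). P7 replicate 4 was also the highest P7 library for these genes. ISG20, an antiviral exonuclease, had 0, 0 and 2 reads at P7 and 51, 10 and 31 reads at P28. The ratio of its depth-scaled counts was 50.5, with an exact 95% interval of 13.6 to 423 that covers counting error only. ISG20 passed the filter on low counts through its P28 libraries alone, so it had to differ, and its ratio is a description. Where 10 counts were required in each of the 6 libraries, it was left out, and 9 of 16 genes of the list were higher (median log2 fold change 1.21). The receptor subunit gene IFNAR1 was the lower one (log2 fold change -0.60 ± 0.12). The adjusted p of MX1 with 1 library left out was 0.00462 to 0.0698 (above 0.05 without P7 replicate 5 or P28 replicate 6).

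Immediate early genes, which respond within minutes to signals that reach a cell, were higher in part. Of 11 tested, 5 were higher and none was lower (median log2 fold change 0.97), and 5 were higher with any 1 of the 6 libraries left out. Besides NR4A3 these were EGR1, JUNB, JUN and ZFP36. EGR1, a zinc finger transcription factor, measured 13.9, 14.3 and 18.7 CPM at P7 and 50.9, 59.4 and 43.7 CPM at P28 (log2 fold change 1.72 ± 0.29 SE, edgeR adjusted p = 0.00216), and JUNB, a subunit of the AP-1 factor, measured 23.0, 17.9 and 18.6 CPM at P7 and 61.3, 48.2 and 43.4 CPM at P28 (log2 fold change 1.36 ± 0.22 SE, edgeR adjusted p = 0.00148). ZFP36, which speeds the decay of cytokine mRNAs, measured 49.9, 52.4 and 46.9 CPM at P7 and 93.2, 110.1 and 90.1 CPM at P28 (log2 fold change 0.97 ± 0.18 SE, edgeR adjusted p = 0.00328). The P28 libraries lay above the P7 libraries in all 3 genes. FOSB, another AP-1 subunit, measured 1.08, 0.600 and 5.04 CPM at P7 and 2.95, 15.2 and 6.35 CPM at P28 with overlapping groups, and its log2 fold change of 1.87 ± 1.07 did not pass the test.

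Clock and glucocorticoid genes were also higher in part. Of 14 tested, 6 were higher and 1 was lower (median log2 fold change 0.67), but with 1 library left out the count of higher genes was between 2 and 5. NR1D2, the clock repressor REV-ERB beta, measured 243, 249.7 and 250.1 CPM at P7 and 593, 453 and 457 CPM at P28 (log2 fold change 1.02 ± 0.15 SE, edgeR adjusted p = 0.000971). FOXO3, a forkhead factor held back by insulin signalling, measured 291, 367 and 289 CPM at P7 and 559.9, 577 and 555 CPM at P28 (log2 fold change 0.84 ± 0.22 SE, edgeR adjusted p = 0.0175), and KLF9, a target of glucocorticoid and thyroid hormone, measured 286, 313 and 285 CPM at P7 and 398, 530.0 and 456 CPM at P28 (log2 fold change 0.65 ± 0.17 SE, edgeR adjusted p = 0.0219). No P28 library of these genes fell within the P7 range. HSD11B2, which inactivates cortisol, was the lower gene, at 4.32, 3.60 and 5.85 CPM at P7 and 0.717, 0.981 and 2.64 CPM at P28 (log2 fold change -1.69 ± 0.48 SE, edgeR adjusted p = 0.0268). The glucocorticoid receptor gene NR3C1 had a log2 fold change of -0.07 ± 0.13 and did not pass the test. When each of the 6 libraries was left out in turn, the adjusted p ranged over 0.0256 to 0.0659 (above 0.05 without P7 replicates 4 or 6 or P28 replicate 5) for FOXO3, 0.0245 to 0.0882 (above 0.05 without P7 replicates 4 or 6 or P28 replicates 5 or 6) for KLF9 and 0.00997 to 0.101 (above 0.05 without P7 replicates 4 or 6 or P28 replicates 4 or 5) for HSD11B2.

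Of 14 tested genes of cholesterol and lipid synthesis, 4 were lower and 1 was higher (median log2 fold change -0.50). With 1 library left out 2 to 4 were lower, with 2 without P7 replicate 4, P7 replicate 5 or P28 replicate 5. MVD, an enzyme of the mevalonate route to cholesterol, measured 31.0, 40.6 and 33.4 CPM at P7 and 54.3, 74.6 and 68.5 CPM at P28 (log2 fold change 0.91 ± 0.19 SE, edgeR adjusted p = 0.00574). Its P28 libraries all lay above its P7 libraries. ME1, malic enzyme, and ELOVL1, an elongase of very long fatty acids, were lower, with log2 fold changes of -1.37 ± 0.26 and -0.88 ± 0.17, and so was FADS3 (-0.67 ± 0.22). ELOVL1 overlaps MED8. Over the fits without 1 library the adjusted p was 0.0342 to 0.159 (below 0.05 only without P7 replicate 6) for FADS3, which was also not called with the replicate block or without the genes named Metazoa_SRP, which encode the RNA of the signal recognition particle.

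Among 21 tested Wnt, BMP and Notch genes, 6 were lower and 1 was higher (median log2 fold change -0.11), and 2 to 4 were lower when 1 library was left out. WLS, the carrier that Wnt proteins need for secretion, measured 62.7, 61.4 and 63.2 CPM at P7 and 31.0, 30.8 and 32.1 CPM at P28 (log2 fold change -0.99 ± 0.11 SE, edgeR adjusted p = 0.000268), and NKD1, an inhibitor induced by Wnt signalling, measured 7.57, 6.46 and 6.59 CPM at P7 and 2.79, 2.37 and 3.03 CPM at P28 (log2 fold change -1.33 ± 0.27 SE, edgeR adjusted p = 0.00538). The ligand genes BMP4 and WNT5A were lower, with log2 fold changes of -0.94 ± 0.23 and -1.15 ± 0.34. HES4, a Notch target, was the gene called higher and measured 34.2, 36.5 and 23.7 CPM at P7 and 54.4, 63.3 and 87.1 CPM at P28 (log2 fold change 1.11 ± 0.28 SE, edgeR adjusted p = 0.0166). WLS overlaps RPE65. In the fetal growth and imprinted list 2 of 9 tested genes were lower and none was higher (median 0.10, and -0.02 under library totals), and the 2 were DIRAS3 (-2.07 ± 0.40) and MAGEL2 (-1.49 ± 0.46), both at levels below 5 CPM in every library. DIRAS3 passed the filter on low counts through its P7 libraries alone, and where 10 counts were required in each of the 6 libraries neither gene was tested. The growth factor receptor gene IGF1R had a log2 fold change of 0.78 ± 0.30 that did not pass the test but was called by DESeq2 and with the 6 libraries alone. Leaving out 1 of the 6 libraries put the adjusted p at 0.0127 to 0.066 (above 0.05 without P7 replicates 4 or 5 or P28 replicates 4 or 6) for BMP4, 0.0256 to 0.152 (below 0.05 only without P7 replicate 4) for WNT5A, 0.0206 to 0.072 (above 0.05 without P7 replicate 6 or P28 replicate 6) for HES4 and 0.0279 to 0.101 (above 0.05 without P7 replicates 4, 5 or 6 or P28 replicate 5) for MAGEL2, which was also not called with the 6 libraries alone.

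Genes of protein synthesis were examined as lists chosen after their values were seen, by the pattern of their names. Of 25 tested cytosolic ribosomal protein genes 9 were higher and none was lower, with a median log2 fold change of 0.39 and 24 of the 25 above 0. The summed level of the 26 such genes in the table was 18193 to 22842 CPM at P7 and 24532 to 28235 CPM at P28. At P1 it was 24862 to 26735 CPM. Between 3 and 10 of the 25 tested genes were higher with 1 library left out. Of 20 mitochondrial ribosomal protein genes 1 was lower and none was higher (median -0.06). Reads of cytosolic ribosomal protein genes can be shared with their many processed copies. EEF2, the translocation factor of elongation and one of the called genes with the highest level per length, measured 6227, 5492 and 6192 CPM at P7 and 10294, 9245 and 9609 CPM at P28 (log2 fold change 0.70 ± 0.12 SE, edgeR adjusted p = 0.00203), and 5 of 17 translation factors were higher and none lower. With 1 library left out, 1 to 5 translation factors were higher and 0 to 2 lower, with 1 higher without P7 replicate 5 and 3 higher and 2 lower without P28 replicate 4. Scaled by library totals, 3 ribosomal protein genes were higher, and 1 translation factor was higher and 1 lower.

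Markers of the cell types that heart tissue holds were examined in the same fit. Both fibroblast markers tested, FBN1 and TCF21, were lower (log2 fold changes -1.89 ± 0.16 and -0.75 ± 0.14), as were both epicardial markers, ALDH1A2 and TBX18 (-1.20 ± 0.16 and -0.88 ± 0.15). Of 7 endothelial markers 3 were lower, FLT4, TIE1 and ERG, and none was higher, and TEK had a log2 fold change of 0.42 ± 0.15 that did not pass the test but was called by DESeq2 and with the 6 libraries alone. Of 6 cardiomyocyte markers 3 were higher and none was lower, whereas 2 were higher and 1, ACTC1, was lower under library totals. Neither of the 2 smooth muscle and pericyte markers tested passed the test, with NOTCH3 at a log2 fold change of -0.67 ± 0.42. The summed endothelial level was 968 to 1260 CPM at P7 and 859 to 927 CPM at P28. With 1 of the 6 libraries left out, the adjusted p ranged over 0.0394 to 0.0908 (above 0.05 without P7 replicates 4 or 5 or P28 replicates 5 or 6) for FLT4, 0.0342 to 0.0902 (below 0.05 only without P7 replicate 6) for TIE1 and 0.0271 to 0.141 (below 0.05 only without P7 replicate 6) for ERG, which was also not called without a filter, and the fibroblast and epicardial markers were called throughout.

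Of 5 macrophage markers tested, 3 were higher at P28 and none was lower. All 5 had every P28 library above every P7 library, and the complement genes C1QA, C1QB and C1QC passed the test, with C1QA at 90.3, 55.9 and 86.3 CPM at P7 and 219.6, 143 and 132 CPM at P28 (log2 fold change 1.09 ± 0.23 SE, edgeR adjusted p = 0.00567). Their summed level was 502, 374 and 488 CPM at P7 and 1117, 732 and 685 CPM at P28, with P28 replicate 4 the highest. CFD, the complement factor D gene of fat cells and macrophages, measured 27.2, 24.7 and 36.2 CPM at P7 and 111, 98.0 and 91.2 CPM at P28 (log2 fold change 1.77 ± 0.34 SE, edgeR adjusted p = 0.00373), while the adipocyte factor PPARG had a log2 fold change of -0.57 ± 0.20 and LIPE one of 0.67 ± 0.34, neither of which passed the test, although PPARG was called by DESeq2, under library totals, with the 6 libraries alone and without P28 replicate 4. T and NK cell markers were low. The 4 in the table, of which 3 were tested, summed to 4.78 to 9.02 CPM at P7 and 6.21 to 16.8 CPM at P28. Neutrophil markers summed to at most 7.20 CPM at P7 and 9.49 CPM at P28. The B and plasma cell markers summed to 442, 358 and 517 CPM at P7 and 592, 604 and 525 CPM at P28, without overlap. Most of that was CD79A, a chain of the B cell receptor, at a mean of 432 CPM at P7 and 555 CPM at P28 (log2 fold change 0.36 ± 0.13, edgeR adjusted p = 0.077, which did not pass the test). Of the B cell markers CD22 was higher (log2 fold change 1.20 ± 0.31), and of the 2 tested erythroid markers EPB42 was lower (-1.78 ± 0.44). The other, the transferrin receptor gene TFRC, had a log2 fold change of 0.37 ± 0.24 that did not pass the test, and made up most of an erythroid sum of 1187 to 1265 CPM at P7 and 1411 to 1806 CPM at P28. The Schwann cell and neuron list summed to 127 CPM in P28 replicate 4, against 47.7 and 57.8 CPM in the other P28 libraries and 75.8, 43.5 and 53.1 CPM at P7. Its members CDH19 and MBP had log2 fold changes of 0.60 ± 0.36 and 0.44 ± 0.47 that did not pass the test, while ELAVL4 was called lower and also passed the filter through its P7 libraries alone. Over the fits without 1 of the 6 libraries the adjusted p was 0.0268 to 0.0804 (above 0.05 without P7 replicates 4 or 5 or P28 replicate 4) for CD22 and 0.0161 to 0.0671 (above 0.05 without P7 replicate 5) for EPB42. It was 0.0236 to 0.0698 (above 0.05 without P7 replicate 5 or P28 replicates 5 or 6) for ELAVL4 and 0.0134 to 0.0634 (above 0.05 without P7 replicate 5 or P28 replicate 4) for C1QB. The part of these markers in the changes of the matrix, cell cycle and interferon genes was not tested.

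**Figure D5:**
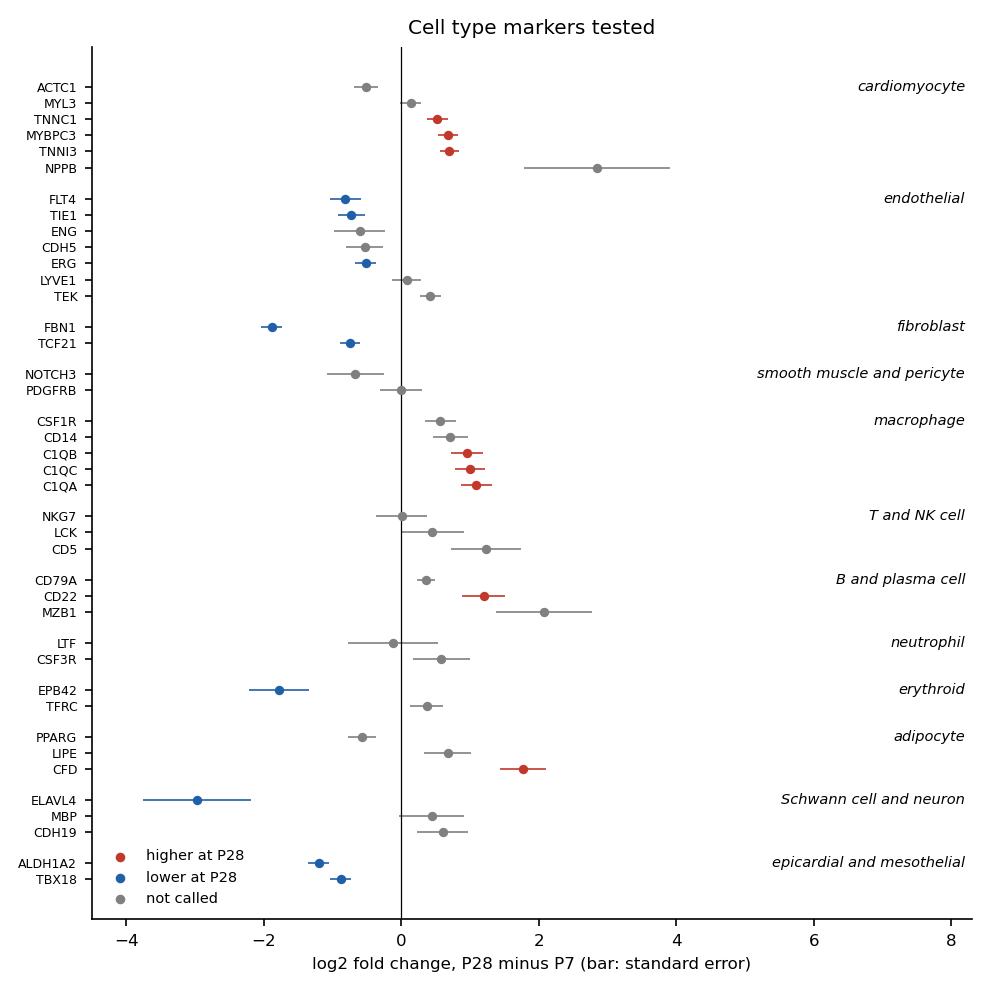
Log2 fold change (P28 minus P7) of the tested cell type markers, grouped by cell type, with bars for the standard error of the edgeR fit. Red markers were called higher, blue lower and grey not called; the fibroblast and epicardial markers lie left of 0, and the macrophage markers lie right of 0.

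Of 523 tested lncRNAs 55 were higher and 33 were lower, or 16.8% in either direction, against 20.5% of protein-coding genes, of which 362 were higher and 552 lower. The 3 higher lncRNAs with the smallest p lie near one another on chromosome 13, between positions 46269596 and 46412800. ENSSSCG00000048519 measured 0.901, 0.866 and 0.976 CPM at P7 and 14.0, 12.3 and 21.6 CPM at P28 (log2 fold change 4.11 ± 0.51 SE, edgeR adjusted p = 0.000462), and ENSSSCG00000044457 measured 1.98, 2.53 and 2.68 CPM at P7 and 33.7, 29.9 and 48.2 CPM at P28 (log2 fold change 3.95 ± 0.58 SE, edgeR adjusted p = 0.00102). ENSSSCG00000049500 measured 0.541, 1.87 and 1.46 CPM at P7 and 17.3, 16.2 and 28.0 CPM at P28 (log2 fold change 3.95 ± 0.62). P28 replicate 6 was the highest library for all 3, and the levels at P7 were close to those at P1.

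The lncRNAs called lower with the smallest p were a transcript named GNG12, ENSSSCG00000042732 and ENSSSCG00000047115. The annotation gives GNG12 the lncRNA class although the name is that of a G protein gamma subunit, and it measured 105, 107 and 112 CPM at P7 and 49.7, 50.8 and 45.1 CPM at P28 (log2 fold change -1.15 ± 0.12 SE, edgeR adjusted p = 0.000245). ENSSSCG00000047115, on chromosome 2 at positions 130520823 to 130570762, measured 16.8, 17.7 and 11.9 CPM at P7 and 0.638, 0.736 and 1.27 CPM at P28 (log2 fold change -4.14 ± 0.63 SE, edgeR adjusted p = 0.00121), and ENSSSCG00000042732 had a log2 fold change of -1.59 ± 0.18. All P28 libraries were below all P7 libraries for these transcripts, which all overlap other genes in the annotation. Of 101 small nucleolar RNA genes 9 were higher and none was lower (median log2 fold change 0.45), and of 28 miRNA genes 3 were higher and none was lower. The shares called higher, 8.91% and 10.7%, were near the 8.38% of all tested genes called higher. Of all tested genes 11.2% were called lower.

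Called genes were spread over the chromosomes, with 21.5% of tested genes called on chromosome 13, 20.4% on chromosome 2, and 18.6% on both chromosomes 1 and 6. By length of the annotated gene the share was 17.9% among the 1326 shortest genes and 19.9% among the 1324 longest.

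Among the largest differences, libraries of an age did not always lie together. STK32A, a serine-threonine kinase gene picked out after its values were seen, measured 304, 13.9 and 329.5 CPM at P7 and 3.99, 10.4 and 9.38 CPM at P28 (log2 fold change -4.77 ± 0.91 SE, edgeR adjusted p = 0.00368). P7 replicate 5 was close to the P28 libraries while the other P7 libraries were many times higher, and limma voom did not call the gene. PRSS35, a serine protease homologue also picked out afterwards, measured 4.23, 4.73 and 4.47 CPM at P7 and 0, 0.0818 and 0.195 CPM at P28 with no such split within P7. Its P28 values rest on 0, 1 and 2 reads, and it passed the filter on low counts through its P7 libraries alone, so it had to differ.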

How the data were processed

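The authors sequenced rRNA-depleted total RNA of pig hearts with stranded paired-end libraries and deposited raw read counts per gene, without normalization. The counter, its strand setting, the handling of overlapping genes and the annotation are not given in the sources used here. The submitters' processing notes name STAR 2.7.9a, MultiQC 1.11 and Sscrofa10.2, but 99.9% of 4510 protein-coding genes overlapped the RefSeq gene of the same symbol on Sscrofa11.1, so positions were read as Sscrofa11.1. The table holds 9815 genes, and its last line, cut short and without counts, was left out. Of the 5301 genes tested, 3892 were named by the table, 231 by a list of gene names and 1178 have no name.

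Libraries were grouped by the age in their labels. The column numbers 4 to 6 match no label and only name a library as its replicate. Genes that reached 10 counts in 3 or more of the 6 libraries were fitted in R 4.3.3 with edgeR 4.0.16 (TMM factors, quasi-likelihood test), with all 12 cd libraries and the 4 ages in one fit, and P28 was contrasted with P7. The adjusted p is that of Benjamini and Hochberg over the 5301 genes, and a call needed a value below 0.05. SE is the log2 fold change divided by the square root of the F statistic. The summed level of a list takes all its genes in the table, tested or not. P-values measure the spread between animals of the same age, 1 library each, pooled over the 4 ages with 3 animals at each. The 6 libraries held 10112239 to 13169144 reads each. The test was tested on simulated data with known answers.

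Named genes were the 8 called protein-coding genes of smallest p in each direction, the 3 called lncRNAs of smallest p in each direction, the 5 called protein-coding genes of highest level per length, up to 4 called genes of smallest p of each list (the 2 of smallest p where fewer than 2 were called), and NPPB, TNNI3 and ACTC1. Further members of the lists were named after their values were seen, and some genes are not reported here. The comparison, the lists and the marker genes were chosen with earlier results of these data known. DESeq2 1.42.0, limma 3.58.1 (voom), other scalings and filters, leaving out each library, and the column number as a block were tried as alternatives. Figures were made with matplotlib 3.10.9 under Python 3.11.15. The circRNA and miRNA tables were not used here.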

Additional observations from a re-analysis of the deposited data

How the results depend on the processing

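All 1036 genes called between P7 and P28 kept their direction in every alternative that tested them. The count of calls rose to 1681 with the 6 libraries alone (795 higher, and 33.7% of protein-coding genes) and to 1562 without P3 replicate 5 (755 higher and 807 lower, with 31.4% of protein-coding genes and 20.8% of lncRNAs called), an alternative chosen after seeing the data. The common dispersion was 0.0257 with the 6 libraries alone and 0.0437 with all 12. With 1 of the 6 libraries left out the number of calls was 583 to 724 (209 to 295 higher and 374 to 436 lower). Those fits called 11.5% to 14.2% of protein-coding genes and 10.9% to 12.2% of lncRNAs, and 5.97% of lncRNAs were called without a filter on low counts. DESeq2 called 1287 genes and limma voom 1071.

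Scaling by library totals gave 267 higher genes. It moved list medians to -0.080 (calcium handling), -0.19 (fatty acid oxidation), -0.14 (oxidative phosphorylation), -0.031 (glycolysis), -0.064 (hypoxia), -0.76 (extracellular matrix), -0.021 (fetal growth) and -0.23 (Wnt, BMP and Notch). Without a filter the medians of the last 2 lists were -0.044 and -0.30, and with 10 counts required in each of the 6 libraries that of the immediate early genes was 0.80. With 1 library left out, list medians ran from -3.14 to -2.39 for mitosis, from 0.044 to 0.16 for glycolysis, from -0.049 to 0.10 for hypoxia, from -0.55 to -0.37 for cholesterol and from -0.28 to -0.12 for Wnt, BMP and Notch (-0.11 without P3 replicate 5).

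In the fit with the replicate block, 1006 genes were called, and 954 of the 1036 calls remained. Same-numbered libraries of the 2 ages had deviations correlated at 0.05, 0.09 and 0.06 (Pearson, across genes), none above 0.1, so the numbers were not taken to pair the animals, although 6 of 6 libraries correlated best with their own number. Of 111 called genes that were followed one by one, 34 lost the call in at least 1 fit without 1 of the 6 libraries. Of the 74 of them chosen by the rule for named genes, 58 stayed past the threshold in every alternative that tested them. The smallest change called was 0.31 on the log2 scale, and a gene that was not called is not shown to be unchanged.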
